A study of Mus musculus with 12 samples.

Results

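MT∆Ecad is a mesenchymal breast cancer cell line of the mouse, and the comparison described here sets its cells after knockdown of Nrf2 against control cells. Of the 24454 genes counted, 11257 reached 1 CPM (read counts scaled to a fixed library total) in at least 2 of the 4 MT∆Ecad libraries, and these are the genes described. Genes that came close to this limit on either side were Kcnab3, whose second highest value was 1.004 CPM, and Ccpg1os, at 0.9967 CPM and not described. In the study 3 mesenchymal lines (MT∆Ecad, PyMT-1099 LT and Py2T LT) received Dharmacon siRNA for 48 hours, targeting Nrf2 in the siNrf2 groups and no gene in the siCtl groups. All 6 groups held 2 libraries that the series text calls biological duplicates, which makes 12 libraries. MT∆Ecad came from a mammary tumour of the MMTV-Neu strain, in which the MMTV promoter drives the Neu (Erbb2) oncogene in mammary epithelium, and its name points to a deletion of E-cadherin, which siCtl and siNrf2 cells share. The other lines came from tumours of the MMTV-PyMT strain. MT∆Ecad is 1 line, and the labels give neither its clonal origin nor the sequences or the number of the siRNAs.

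NRF2, encoded by Nfe2l2, is a transcription factor of the basic leucine zipper family. In unstressed cells KEAP1 presents it to the CUL3 ubiquitin ligase for degradation. Oxidants and electrophiles disable KEAP1, and NRF2 then accumulates, pairs with a small MAF protein and binds antioxidant response elements beside genes of glutathione and thioredoxin metabolism, NADPH supply, drug conjugation and export, and iron storage. Many carcinomas hold the pathway in an active state.

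The 4 MT∆Ecad libraries held 27088970 to 34422018 reads, so for genes with 0 reads the upper limit was at most 0.1107 CPM, counting 3 reads as what a count of 0 allows. Low Cdh1 and Epcam and high Vim and Cdh2 matched the label of a mesenchymal line without E-cadherin, while some keratins were high too. The listed epithelial genes summed to 2525 to 2810 CPM with siCtl and 2647 to 2671 CPM with siNrf2. Krt7 was the highest of them at 1398 CPM, and Krt8 measured 770 and 874 against 946.7 and 936.9 CPM. Cdh1 (E-cadherin) had 9 to 22 reads per library and Epcam at most 4. Vim (vimentin) measured 4972 and 5050 against 5534 and 5455 CPM, and Cdh2 (N-cadherin) 215 and 215 against 239.7 and 236 CPM. Erbb2 stood at 69.95 and 75.4 against 77.6 and 75.1 CPM, so its level overlapped between the groups. Endothelial markers summed to at most 0.2953 CPM, with 4 of 8 (Kdr, Tie1, Emcn and Cldn5) at 0. Leukocyte markers summed to 12.96 to 15.95 CPM with siCtl and 16.6 to 17.5 CPM with siNrf2, with 4 of 10 (Cd3e, Adgre1 and Tyrobp among them) at 0 and Cd14 the highest at 11.07 CPM. Of the 3 described, Cd68 was called higher by the test below (log2 fold change 0.52). Csf1r (0.53) and Cd14 (-0.05) did not pass. Fibroblast and adipocyte markers summed to 78.6 to 86.4 and 127.2 to 156.8 CPM, most of it Pdgfra, with Lum and Adipoq at 0 of 10. The share of reads on the 10 highest genes was 5.05% and 5.30% with siCtl and 5.67% and 6.44% with siNrf2, and unmatched identifiers took 0.87% to 1.52%. The part of these values in the results was not tested.

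Nfe2l2 itself (chromosome 2, 75675513 to 75704663 of GRCm38.p6) measured 208 and 209 CPM with siCtl and 50.8 and 53.98 CPM with siNrf2. Both knockdown libraries lay far below both controls, and 25.2% of the mean level was left. The log2 fold change on the scale of log2(CPM + 1), used for every fold change here, was -1.97 ± 0.12 (SE), with an adjusted p of 9.67e-05 by limma. In the other lines it was -1.91 and -1.86, in PyMT-1099 LT and Py2T LT in this order, and the difference between MT∆Ecad and their mean did not pass (-0.09 ± 0.14 (SE), adjusted p 0.861).

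**Figure D1:**
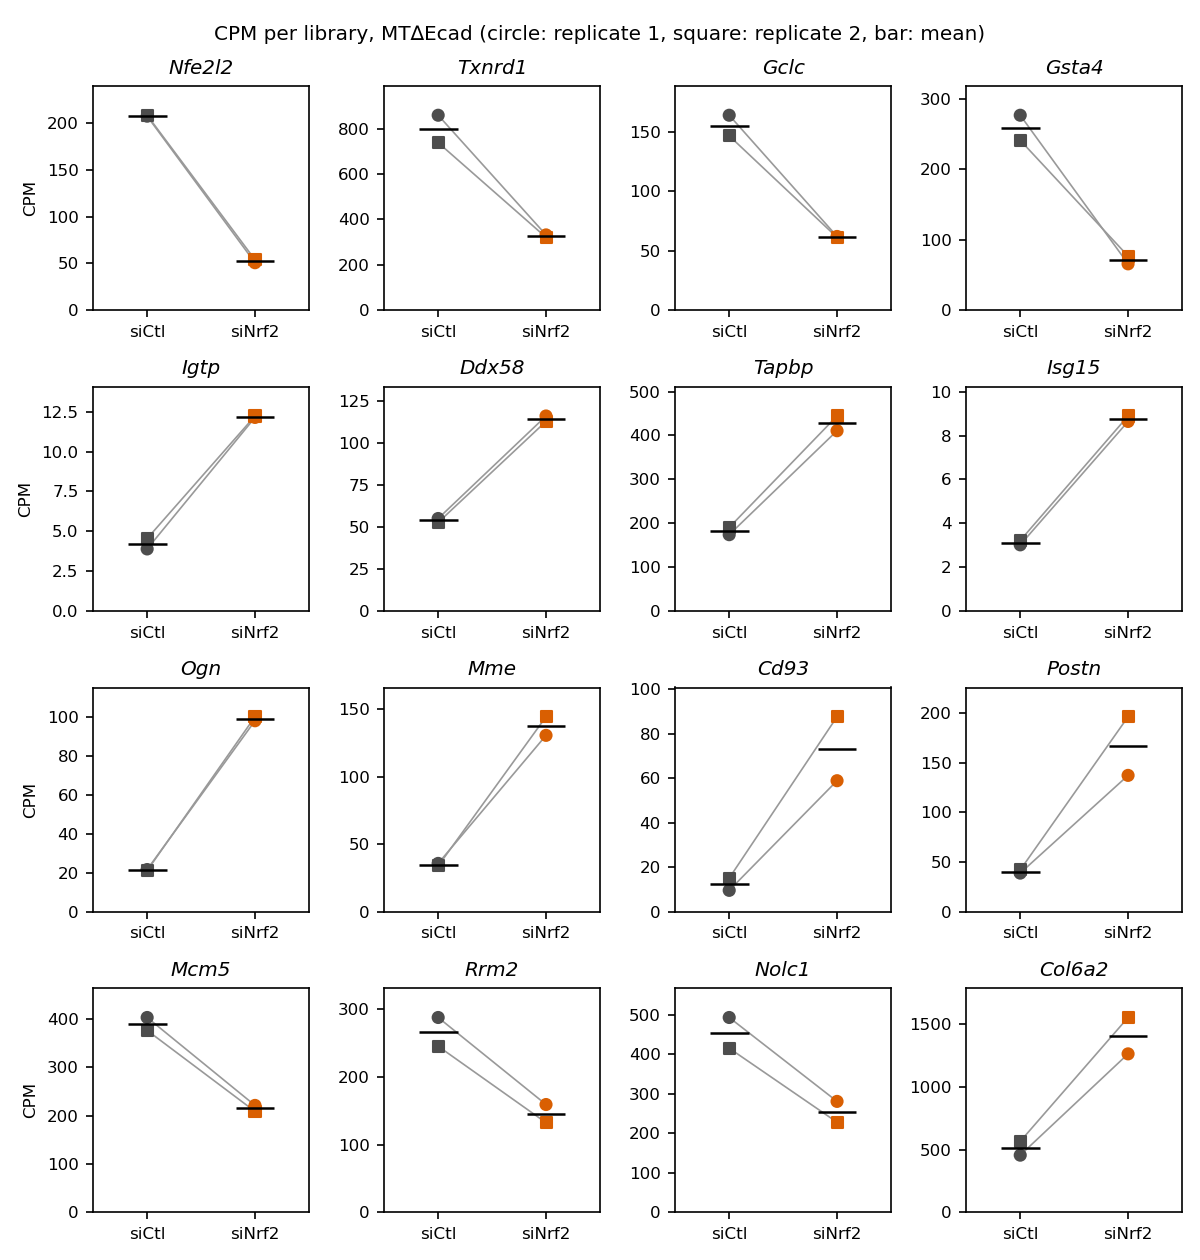
CPM (vertical axes, from 0) of 16 genes in the 4 MT∆Ecad libraries, with lines joining libraries of the same replicate number and bars at the group means. In every panel both siNrf2 libraries lie on 1 side of both siCtl libraries, as for every called gene. Nfe2l2 goes from 207.6 and 208.6 CPM to 50.8 and 54.0 CPM.

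The response of the transcriptome was broad. In a limma model over all 12 libraries with Benjamini-Hochberg adjustment over 12502 tested genes, 1098 of the 11257 genes described were higher (9.75%) and 1048 were lower (9.31%), 19.1% together. All of them had libraries that did not overlap between the groups, against 34.5% of the genes described with both siNrf2 libraries above both controls and 35% with both below. Lack of overlap in a called gene below therefore adds nothing to its call. The median gene of all described did not shift (0.00), the median rise was 0.61 and the median fall -0.51. Rises reached further, with 177 genes at a log2 fold change of 1 or more against 57 genes at -1 or less. Of the genes described, 82 were under 1 CPM in both controls and 45 in both siNrf2 libraries. These met the limit only through the group where they were higher, so their direction was set by the limit. With the replicate number as a block, 2621 genes were higher (23.3%) and 2617 lower (23.2%), and every gene called without the block was among them. Calls, SE and adjusted p below are without the block unless it is named, so a gene that did not pass may pass with it. The counts leaned on single libraries. Leaving out 1 library leaves its group with 1, which is then assumed to vary like the other groups: 324 genes were higher and 249 lower without siCtl 1, 791 and 539 without siCtl 2, 765 and 583 without siNrf2 1, and 338 and 285 without siNrf2 2. The model also shares its spread between lines. Of 405 genes under 1 CPM in all 8 libraries of the other lines, 216 passed (53.3%), and a fit of the 4 MT∆Ecad libraries alone kept 86 of them, as it kept 842 of all 2146.

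**Figure D2:**
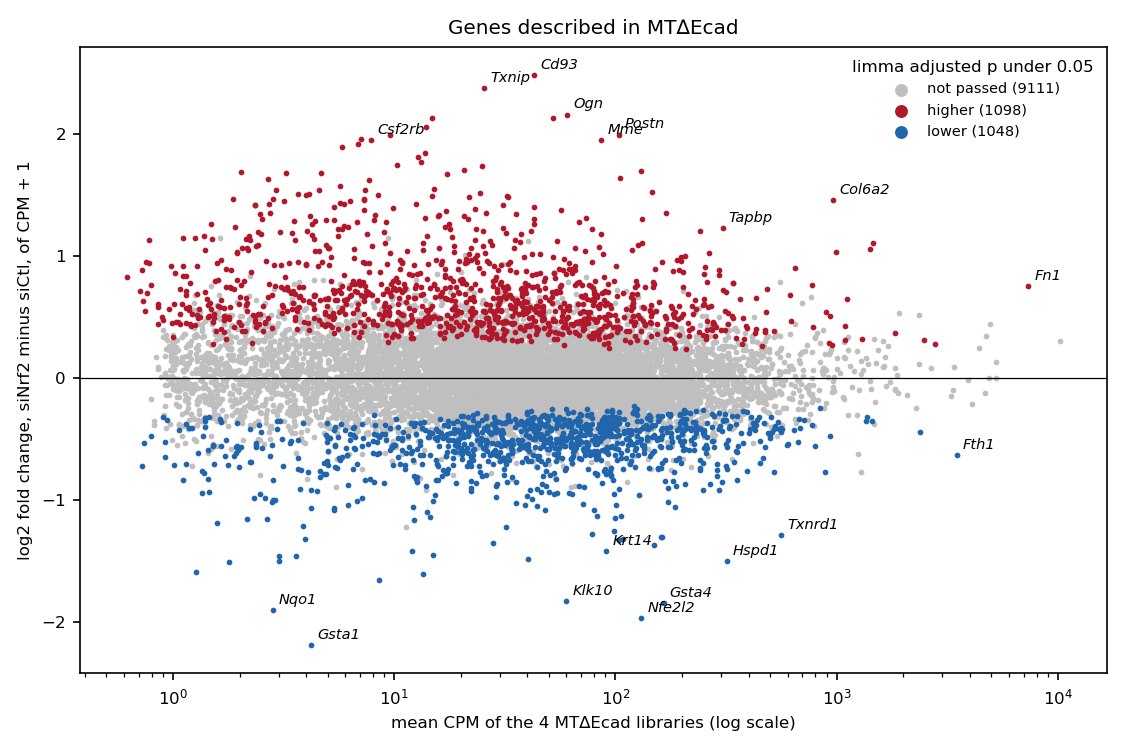
Log2 fold change (siNrf2 minus siCtl, of CPM + 1, vertical axis) against the mean CPM of the 4 MT∆Ecad libraries (log axis) for 11257 genes, coloured by whether limma's adjusted p was under 0.05. Calls lie at all levels of expression, and the rises (1098) reach larger fold changes than the falls (1048).

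Of 40 described genes among 42 listed NRF2 targets, 25 fell and 1 rose, while 14 did not pass. Their median was -0.51, against 0.0009 for all genes described. Without siCtl 1, siCtl 2, siNrf2 1 and siNrf2 2 in turn the falls numbered 15, 16, 16 and 18. Antioxidant response elements are short sites, searched here as TGACNNNGC on both strands of the RefSeq promoter windows of GRCm38.p6 (250 bases before to 50 after a start). They were found for 11 of 31 listed targets with a window (35.5%), for 19.3% of the genes that fell, 15.7% of those that rose, 16.8% of those that did not pass and 13.99% of all genes with a window. The stretches below hold the match in capitals, 5′ to 3′ on the strand of the gene, and are shown because their genes fell. They lie at chr10:82859089-82859147, plus strand for Txnrd1, at chr3:122245398-122245456, plus strand for Gclm and at chr11:120633736-120633794, minus strand for Mafg.
Txnrd1: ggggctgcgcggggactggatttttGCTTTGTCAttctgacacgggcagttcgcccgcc
Gclm: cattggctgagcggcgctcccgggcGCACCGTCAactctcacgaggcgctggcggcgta
Mafg: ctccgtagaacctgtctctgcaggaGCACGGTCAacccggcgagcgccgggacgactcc
These matches are letters in a window and no record of binding.

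RNA of the enzyme for the first step of glutathione synthesis fell. Gclc, the catalytic subunit of glutamate-cysteine ligase, measured 164 and 147 CPM with siCtl and 61.97 and 61.2 CPM with siNrf2, a change of -1.32 ± 0.09 (SE) with a limma adjusted p of 0.000137. Gclm, the modifier subunit of the same enzyme, measured 141 and 129.8 CPM with siCtl and 62.6 and 67.9 CPM with siNrf2 (-1.04 ± 0.09 (SE), adjusted p 0.000447). Both siNrf2 libraries lay under both controls for each subunit, as for every called fall. Gsr, which reduces oxidized glutathione, measured 192 and 185 against 136 and 132 CPM, a smaller fall of -0.49. Slc7a11, the cystine transporter chain that supplies the pathway, did not pass (adjusted p 0.182), and its libraries came close to overlapping, with 16.0 and 11.04 against 10.6 and 8.45 CPM. Hmox1, heme oxygenase, did not pass either. It measured 204 and 149.7 CPM with siCtl and 185 and 142 CPM with siNrf2, so the replicates of each group differed more than the groups, and the value was -0.10 ± 0.29 (SE) (adjusted p 0.894). Slc7a11 was chosen after its values were seen.

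Thioredoxin genes among the targets fell too. Txnrd1, cytosolic thioredoxin reductase, measured 859 and 738 CPM with siCtl and 332 and 321 CPM with siNrf2, a change of -1.28 ± 0.10 (SE) with an adjusted p of 0.000237. Srxn1, which repairs overoxidized peroxiredoxins, measured 261 and 240.4 against 119 and 120.1 CPM (-1.06). Txn1, thioredoxin, changed by -0.53, Prdx1 by -0.36 and Prdx6 by -0.87, all with an adjusted p under the threshold of 0.05. Txnip, a binding partner that restrains thioredoxin, went the other way: it measured 6.67 and 7.86 CPM with siCtl and 30.8 and 56.7 CPM with siNrf2, and at 2.38 ± 0.30 (SE) it was among the largest rises (adjusted p 0.00151, and 0.0506 in the fit of the 4 libraries alone). Arrdc4, an arrestin of the same family, measured 4.41 and 5.39 against 11.2 and 18.5 CPM and rose by 1.39. Cat, catalase, measured 135 and 131 against 112 and 109 CPM (-0.27), and this call held in 4 of the 12 fits that each left out a library. Outside the target list, 14 thioredoxin and superoxide genes gave 4 rises (Txnip, Arrdc4, Msrb1 and Sod3) and 1 fall (Msra), while 9 did not pass. The same list had 6 rises and 4 falls with the block, and its fall was lost without any 1 of the 4 MT∆Ecad libraries.

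Some detoxification genes were among the largest falls. Other listed targets of this kind did not pass, among them Ephx1 (-0.02), Cbr1 (0.07), Akr1b8 (0.10), Ptgr1 (0.15), Aox1 (0.16) and Aldh3a1 (-0.77). Nqo1, a quinone reductase, measured 5.18 and 4.87 CPM with siCtl and 0.536 and 0.697 CPM with siNrf2 (-1.90 ± 0.12 (SE), adjusted p 0.00013). Both its siNrf2 values were under 1 CPM, so it is described only through its controls. Gsta4, a glutathione transferase that acts on lipid aldehydes, measured 276 and 241 CPM with siCtl and 65.7 and 76.6 CPM with siNrf2 (-1.85 ± 0.22 (SE), adjusted p 0.00116). Gstp1 measured 136 and 138 against 60.3 and 62.4 CPM (-1.15) and Gstm1 57.9 and 63.6 against 28.03 and 35.04 CPM (-0.93). Glutathione transferases of 1 class are close in sequence, so reads shared between Gsta or Gstm genes make single values uncertain. Cbr3, a carbonyl reductase, measured 10.04 and 8.79 against 4.45 and 3.92 CPM (-1.01). Esd, which hydrolyses S-formylglutathione, measured 222 and 209 against 77.7 and 89.04 CPM (-1.36). The exporter Abcc1, which carries glutathione conjugates, measured 407 and 361 against 193 and 213 CPM (-0.92), and Abcc4, another exporter of the family, changed by -0.78.

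NADPH and iron genes moved less. Pgd, of the pentose phosphate pathway, measured 557 and 583 against 337 and 388 CPM (-0.65), and G6pdx, its entry enzyme, 447 and 478 against 320.4 and 357 CPM (-0.45). Tkt (-0.39) and Me1 (-0.32), a transketolase and malic enzyme, passed narrowly, with adjusted p of 0.0465 and 0.0472. Idh1, cytosolic isocitrate dehydrogenase, was the listed target that rose. It measured 157 and 203 CPM with siCtl and 300.2 and 348 CPM with siNrf2 (0.85 ± 0.20 (SE), adjusted p 0.0201), with libraries that did not overlap, and the call was lost without siCtl 1 (adjusted p 0.162), siNrf2 1 (0.0515) or siNrf2 2 (0.147). Fth1, ferritin heavy chain, measured 4023 and 4437 CPM with siCtl and 2609 and 2851 CPM with siNrf2 (-0.63 ± 0.15 (SE), adjusted p 0.0198), and Slc48a1, a heme transporter, 551 and 554 against 301 and 386 CPM (-0.69). Ugdh, which makes UDP-glucuronate, changed by -0.34 and Mgst1, a membrane glutathione transferase, by -0.68.

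Of 11 described NRF2 regulators, Nfe2l2 and 1 other fell. That gene was Mafg, the small MAF partner, at 41.8 and 37.8 CPM with siCtl and 28.1 and 26.5 CPM with siNrf2 (-0.53 ± 0.10 (SE), adjusted p 0.00752). Keap1, the adaptor that binds NRF2, measured 70.98 and 81.8 against 66.9 and 76.1 CPM (-0.09, adjusted p 0.732), and Bach1, a repressor at the same sites, 35.4 and 32.5 against 31.8 and 30.1 CPM (-0.13, adjusted p 0.685). Keap1 overlapped between the groups, while the Bach1 libraries with siNrf2 lay just below both controls. Both genes were chosen after their values were seen. Outside the target list, 2 of 17 glutathione and cystine genes rose and none fell, a share near the 9.75% of all genes described. They were Aifm2 and Lpcat3, with 9 rises and 1 falls with the block, and 0, 1, 1 and 1 rises without siCtl 1, siCtl 2, siNrf2 1 and siNrf2 2. Wherever none of a list is said to have risen or fallen by limma, edgeR and DESeq2 called 0 in that direction too, and the count at an unadjusted limma p under 0.05 was 0 to 2. The block called 3 such genes for fatty acid metabolism, 2 receptor tyrosine kinases, and 1 each for glutathione and cystine genes, interferon effectors and matricellular genes.

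Interferon-stimulated genes rose together. Interferons signal through JAK kinases and STAT and IRF factors to genes that hold interferon-stimulated response elements, and these encode antiviral effectors, GTPases of vacuole defence and antigen presentation. Of 17 described effectors among 35 listed, 12 rose and none fell (median 0.94). Of 10 described GTPases among 16, 9 rose (median 1.11), and Gbp9 did not pass (0.62, adjusted p 0.0665). In each of these lists 1 gene was under 1 CPM in both controls and is described only through its siNrf2 libraries. The effectors that rose numbered 9 without any 1 of the 4 MT∆Ecad libraries, and the GTPases 6, 7, 8 and 7 without siCtl 1, siCtl 2, siNrf2 1 and siNrf2 2. Effector medians were 0.17 in PyMT-1099 LT against -0.12 for Py2T LT, and the difference between MT∆Ecad and their mean passed for 8 effectors and 8 GTPases (background 3.18% of genes described).

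The interferon response element was searched on both strands as GAAA, any 2 bases and GAAA. It stood in the windows of 7.64% of the genes that rose, 2.77% of those that fell and 3.09% of those that did not pass, and of 3.99% of all genes. It was found for 6 of 7 described GTPases with a window (85.7%). The stretches below show it in capitals and belong to genes that rose. They lie at chr4:156200850-156200921, minus strand for Isg15, at chr3:142620579-142620638, plus strand for Gbp2, at chr3:142530258-142530317, plus strand for Gbp7, at chr11:58199497-58199555, plus strand for Igtp and at chr6:34863058-34863117, plus strand for Tmem140.
Isg15: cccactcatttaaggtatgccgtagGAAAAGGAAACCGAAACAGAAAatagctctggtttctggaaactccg
Gbp2: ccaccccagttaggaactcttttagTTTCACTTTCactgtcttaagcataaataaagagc
Gbp7: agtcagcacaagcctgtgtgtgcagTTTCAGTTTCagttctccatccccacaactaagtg
Igtp: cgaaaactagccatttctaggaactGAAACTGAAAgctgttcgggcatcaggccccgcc
Tmem140: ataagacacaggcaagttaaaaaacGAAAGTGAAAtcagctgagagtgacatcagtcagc
The Isg15 stretch holds 3 overlapping matches. TTTC forms are the same element read on the other strand.

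Single effectors started from low levels. Isg15, a ubiquitin-like protein, measured 3.01 and 3.21 CPM with siCtl and 8.64 and 8.89 CPM with siNrf2 (1.25 ± 0.13 (SE), adjusted p 0.000666). Uba7, the enzyme that activates ISG15 for conjugation, measured 1.75 and 1.99 CPM with siCtl and 8.67 and 10.8 CPM with siNrf2 (1.90 ± 0.15 (SE), adjusted p 0.000289). Trim30a, a ubiquitin ligase of the TRIM family, measured 18.1 and 15.5 against 47.5 and 50.03 CPM (1.49), and Xaf1, a factor linked to apoptosis, 3.596 and 2.95 against 8.73 and 9.38 CPM (1.24). In each, as in every called rise, the lower siNrf2 library was above the higher control. Ifit2, which binds viral RNA, is a counterexample chosen after its values were seen: at 66.8 and 63.6 CPM with siCtl and 47.05 and 50.4 CPM with siNrf2 both siNrf2 libraries lay below the controls, and it did not pass (-0.41 ± 0.31 (SE), adjusted p 0.435). Among the GTPases, Irgm2 measured 2.3 and 2.66 against 7.92 and 8.48 CPM (1.40), Igtp 3.89 and 4.54 against 12.1 and 12.2 CPM (1.34), Ifi47 0.713 and 1.14 against 2.87 and 5.14 CPM (1.35) and Gbp7 6.12 and 3.88 against 14.3 and 12.3 CPM (1.28). Gbp genes are close copies of each other, so reads may be split between them.

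Sensors and signal carriers were mixed, with called shares above the 19.1% of all genes described. Ddx58, which encodes the RNA sensor RIG-I, measured 55.1 and 52.8 CPM with siCtl and 116 and 113 CPM with siNrf2 (1.07 ± 0.12 (SE), adjusted p 0.000963). Ifih1, the sensor MDA5, measured 9.62 and 7.86 against 17.5 and 15.6 CPM (0.86). Cgas, the DNA sensor, was lower at 19.5 and 16.3 against 12.2 and 10.2 CPM (-0.63, adjusted p 0.03). Of 13 sensors and adaptors 3 rose and 1 fell, with 6 rises under the block, 2, 3, 1 and 1 without siCtl 1, siCtl 2, siNrf2 1 and siNrf2 2, and the fall of Cgas lost without any 1 of them. Irf7, a factor that amplifies interferon output, measured 0.292 and 0.591 CPM with siCtl and 3.47 and 3.78 CPM with siNrf2 (1.69 ± 0.10 (SE), adjusted p 9.67e-05). Both its controls were under 1 CPM, so it is described only through its siNrf2 libraries. Irf1, another factor of the family, measured 66.8 and 84.1 against 104 and 124 CPM (0.60), Ifngr2, an interferon gamma receptor chain, 45.5 and 39.1 against 72.7 and 66.5 CPM (0.71), and Stat3 137 and 166 against 211 and 230.0 CPM (0.54). Of 17 receptors, STATs and IRFs 5 rose, with 11 rises and 1 falls with the block and 2, 4, 4 and 2 without siCtl 1, siCtl 2, siNrf2 1 and siNrf2 2. None of 10 listed interferon genes, Ifnb1 among them, had a read in any MT∆Ecad library.

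Antigen presentation by MHC class I followed the same direction, with 12 of 17 described genes higher, none lower and a median of 0.69. Of the 17, 2 were under 1 CPM in both controls and are described only through their siNrf2 libraries. Tapbp (tapasin), which bridges the peptide transporter and the MHC chain, measured 174 and 190.1 CPM with siCtl and 411 and 444 CPM with siNrf2 (1.23 ± 0.14 (SE), adjusted p 0.000929). The transporter subunits measured 3.37 and 4.87 against 9.46 and 8.599 CPM for Tap1 (0.98) and 16.6 and 21.7 against 41.97 and 47.5 CPM for Tap2 (1.19). Psmb10, an immunoproteasome subunit, measured 28.5 and 26.5 against 51.97 and 50.6 CPM (0.88). As for every called gene, the groups did not overlap for any of these. H2 genes are polymorphic and alike, so reads may be split between them. The rises numbered 7, 10, 10 and 6 without siCtl 1, siCtl 2, siNrf2 1 and siNrf2 2. Of 14 cytokines and chemokines, 2 rose and 1 fell, a called share near the 19.1% of all genes described. Cx3cl1 rose at 232 and 247 against 381 and 404 CPM (0.71). Vcam1, an adhesion molecule on that list, rose at 20.99 and 19.9 against 38.1 and 36.2 CPM (0.83). Cxcl5 fell at 146 and 142 against 100.1 and 86.2 CPM (-0.63). The list had 4 rises and 4 falls with the block.

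DNA replication genes fell. All 43 listed genes were described, 32 fell and none rose, and the median was -0.58. For all 43 both siNrf2 libraries lay below both controls, against 35% of the genes described. The falls numbered 17, 27, 24 and 17 without siCtl 1, siCtl 2, siNrf2 1 and siNrf2 2. Uhrf1, which guides DNA methylation at forks, measured 260.3 and 229 CPM with siCtl and 133 and 130.3 CPM with siNrf2 (-0.89 ± 0.11 (SE), adjusted p 0.00138). Rrm2, a subunit of ribonucleotide reductase, measured 288 and 245 CPM with siCtl and 159 and 132 CPM with siNrf2 (-0.87 ± 0.15 (SE), adjusted p 0.00566). Helicase subunits measured 403 and 376 against 221 and 209 CPM for Mcm5 (-0.85) and 381 and 348 against 215 and 202 CPM for Mcm3 (-0.80). The groups did not overlap for any of these 4 genes, as for every called gene. The E2F site, searched as TTTNNCGC on both strands, stood in the windows of 15 of 35 replication genes (42.9%), 14.2% of the genes that fell, 7.29% of those that rose, 10.4% of those that did not pass and 5.93% of all genes. The matches of 2 genes are shown in capitals, at chr8:75109331-75109392, plus strand for Mcm5, where 2 matches overlap, and at chr17:56303256-56303313, plus strand for Uhrf1.
Mcm5: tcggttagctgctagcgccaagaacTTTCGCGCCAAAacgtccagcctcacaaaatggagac
Uhrf1: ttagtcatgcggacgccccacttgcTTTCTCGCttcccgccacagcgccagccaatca
Of 44 mitosis genes, 10 fell and none rose (median -0.29), 26 with the block and 5, 4, 4 and 5 without siCtl 1, siCtl 2, siNrf2 1 and siNrf2 2. Aurkb, a kinase of chromosome segregation, measured 116 and 126 against 70.4 and 85.6 CPM (-0.63), and Cks1b, a partner of cyclin-dependent kinases, 129 and 128 against 83.6 and 83.99 CPM (-0.61). Nek2, a kinase of centrosome separation, changed by -0.46 and Bub1b, of the spindle checkpoint, by -0.42.

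Genes of MYC and ribosome biogenesis fell as well, 21 of 37 with 1 rise and a median of -0.58. With the block 34 fell, and without siCtl 1, siCtl 2, siNrf2 1 and siNrf2 2 the falls numbered 5, 18, 19 and 5. Nolc1, a nucleolar phosphoprotein, measured 493 and 415 CPM with siCtl and 281 and 228 CPM with siNrf2 (-0.84 ± 0.11 (SE), adjusted p 0.00194). Odc1, the first enzyme of polyamine synthesis, measured 140.2 and 121 CPM with siCtl and 72.6 and 61.5 CPM with siNrf2 (-0.95 ± 0.14 (SE), adjusted p 0.00339). Dkc1, dyskerin, measured 154 and 118 against 79.7 and 63.9 CPM (-0.91). The gene that rose was Mxd4, an antagonist of MYC, at 10.7 and 13.99 CPM with siCtl and 29.8 and 37.7 CPM with siNrf2 (1.38 ± 0.27 (SE), adjusted p 0.00873). Myc itself, chosen after its values were seen, measured 139.5 and 94.4 CPM with siCtl and 90.8 and 51.9 CPM with siNrf2. Its siNrf2 replicate 1 lay just under siCtl replicate 2, and the change of -0.73 ± 0.25 (SE) did not pass (adjusted p 0.0734, and 0.000397 with the block).

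Nucleotide synthesis and folding genes fell in part. Of 18 purine and pyrimidine genes 7 fell and none rose, 14 with the block and 1, 6, 5 and 1 without siCtl 1, siCtl 2, siNrf2 1 and siNrf2 2. Pfas, of the purine pathway, measured 118 and 108 CPM with siCtl and 68.4 and 65.3 CPM with siNrf2 (-0.75 ± 0.08 (SE), adjusted p 0.000677), Prps1, which makes its ribose donor, changed by -0.65, Ppat by -0.64 and Gart by -0.61. Among 13 serine and one-carbon enzymes, 5 fell and 2 rose. Shmt1 measured 92.2 and 71.2 against 45.2 and 38.5 CPM (-0.94) and Mthfd1 210.5 and 189.6 against 131 and 116 CPM (-0.70). There were 3 rises and 8 falls with the block. Both rises were lost without siCtl 1 or siNrf2 2, and the falls numbered 2, 4, 5 and 2 without the 4 libraries in turn. Of 21 chaperones 8 fell and none rose, with 4, 6, 7 and 4 falls without the same libraries. Hspd1, the mitochondrial chaperonin, measured 514 and 429 CPM with siCtl and 168 and 162 CPM with siNrf2 (-1.50 ± 0.22 (SE), adjusted p 0.00325), a larger change than that of its partner Hspe1, at 94.9 and 87.01 against 66.3 and 53.95 CPM (-0.59), though this difference was not tested. Hsph1, of the cytosol, measured 317 and 285 against 204 and 158 CPM (-0.74) and Cct5, a subunit of the cytosolic chaperonin, 973 and 921 against 643 and 644 CPM (-0.56).

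Lysosomal genes rose. Of 41 described, 24 were higher, 1 lower and the median was 0.43; the rises numbered 6, 17, 19 and 6 without siCtl 1, siCtl 2, siNrf2 1 and siNrf2 2. Idua, which cleaves iduronic acid from glycosaminoglycans, measured 3.31 and 3.73 CPM with siCtl and 8.58 and 11.5 CPM with siNrf2 (1.28 ± 0.15 (SE), adjusted p 0.00128). Scarb2, a lysosomal membrane protein and receptor of glucocerebrosidase, measured 117 and 138 CPM with siCtl and 227 and 274 CPM with siNrf2 (0.97 ± 0.11 (SE), adjusted p 0.0012). The protease Ctso measured 13.9 and 13.4 against 31.4 and 35.1 CPM (1.22). All 3 were clear of overlap, as was every called gene. Of 15 subunits of the vacuolar proton pump, which acidifies lysosomes, 6 rose and none fell, 10 with the block and 1, 4, 3 and 1 without the same 4 libraries in turn. Atp6v0d1 measured 77.4 and 83.95 against 168 and 178 CPM (1.09) and Atp6v1a 190.4 and 204 against 306 and 293 CPM (0.60). For the lysosomal list the other lines had medians of 0.27 and 0.08.

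Extracellular matrix genes rose from both low and high levels. Of 19 collagen genes, 8 rose and none fell (median 0.39), 16 with the block and 4, 6, 6 and 4 without siCtl 1, siCtl 2, siNrf2 1 and siNrf2 2. Col6a2, a chain of collagen VI, measured 456 and 566 CPM with siCtl and 1264 and 1554 CPM with siNrf2 (1.46 ± 0.14 (SE), adjusted p 0.000561). Col6a1, its partner chain, measured 825 and 1019 against 1781 and 2197 CPM (1.11), Col3a1, of fibrillar collagen, 895 and 949 against 1799 and 2041 CPM (1.06) and Col1a1 8.94 and 12.7 against 25.7 and 39.3 CPM (1.49). In each, as in every called rise, the lower siNrf2 library exceeded the higher control. Of 30 matricellular and cross-linking genes 12 rose and none fell, with 3, 10, 11 and 3 without the same 4 libraries in turn. Postn, periostin, measured 38.8 and 42.01 CPM with siCtl and 137 and 196 CPM with siNrf2 (2.00 ± 0.37 (SE), adjusted p 0.00761). Thbs2, thrombospondin 2, measured 7.61 and 8.71 against 17.7 and 19.9 CPM (1.11), and Tgm2, a transglutaminase, 219.7 and 281 against 384 and 475 CPM (0.78). Tnc, tenascin C, measured 15.8 and 29.8 CPM with siCtl and 33.9 and 68.9 CPM with siNrf2, with replicates far apart within each group, and its call (1.12 ± 0.33 (SE), adjusted p 0.0451) held in 2 of the 12 fits that left out a library. The fibroblast markers above, Col1a1 and Pdgfra among them, are in part the same genes.

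Proteases and integrins changed in both directions. For these, the TGF-beta pathway and receptor tyrosine kinases the called share lay above the 19.1% of all genes described. Of 18 matrix proteases and inhibitors 4 rose and 2 fell, with 6 rises and 5 falls with the block and 2, 5, 5 and 2 rises without siCtl 1, siCtl 2, siNrf2 1 and siNrf2 2. Mmp2, a gelatinase, measured 3.73 and 4.54 CPM with siCtl and 12.99 and 20.02 CPM with siNrf2 (1.75 ± 0.18 (SE), adjusted p 0.000564), and Plau, the urokinase, 156 and 128 against 301 and 224 CPM (0.87), while Adam12 was lower at 22.3 and 18.6 against 10.2 and 9.04 CPM (-1.01). Among 13 integrin chains, 3 rose and 3 fell, with 6 rises and 3 falls with the block and 1, 3, 4 and 1 rises without siCtl 1, siCtl 2, siNrf2 1 and siNrf2 2 and 2 falls without any 1 of them. Itgb3 measured 14.8 and 32.7 against 47.9 and 75.2 CPM (1.40) and Itgb8, an activator of latent TGF-beta, 8.78 and 9.19 against 16.9 and 17.4 CPM (0.86). Itga6, a laminin receptor chain, measured 258 and 212 against 140.1 and 120.0 CPM (-0.84), and Itgb7 21.5 and 19.9 against 7.95 and 4.68 CPM (-1.61). Of 24 genes of the TGF-beta pathway 6 rose and 1 fell, with 10 rises under the block and 2, 3, 4 and 2 without siCtl 1, siCtl 2, siNrf2 1 and siNrf2 2. Tgfbi, a matrix protein induced by TGF-beta, measured 3.31 and 3.43 CPM with siCtl and 9.24 and 13.3 CPM with siNrf2 (1.47 ± 0.17 (SE), adjusted p 0.00117), and Tgfbr2, a receptor, 464 and 476 against 779 and 733 CPM (0.68). Of 16 receptor tyrosine kinases 4 rose and none fell, with 7 rises and 2 falls with the block, 0 rises without siCtl 1 or siNrf2 2 and 2 without siCtl 2 or siNrf2 1. Pdgfra measured 68.6 and 72.7 against 100.5 and 116 CPM (0.60).

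Epithelial and EMT genes were called in both directions. The called share of epithelial genes lay above the 19.1% of all genes described, and that of EMT genes lay near it. Of 30 listed epithelial genes 10 were described, 1 rose (Spint2, a protease inhibitor, at 11.7 and 14.3 against 18.98 and 26.4 CPM, 0.75) and 2 fell. Krt14, a basal keratin, measured 142 and 123 CPM with siCtl and 47.4 and 50.1 CPM with siNrf2 (-1.42 ± 0.12 (SE), adjusted p 0.000373), and Ppl, periplakin, 95.2 and 91.5 against 57.8 and 43.1 CPM (-0.89). Among 14 cadherin and EMT genes, Ncam1 rose (0.62) and Tead2 (-0.78) and Sox4 (-0.34) fell. The EMT list had 4 rises and 3 falls with the block, and the epithelial list 2 rises and 2 falls with the block. Cdh2 did not pass (0.14, adjusted p 0.356), nor did Vim (0.13, adjusted p 0.542) or Krt8 (0.20, adjusted p 0.484), the last 2 chosen after their values were seen.

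Most genes of the stress and metabolic lists did not pass, where 19.1% of all genes described were called. The called share lay above this for fatty acid, glycolysis and hypoxia, integrated stress response and p53 genes. It lay below for cholesterol, immediate early and ER chaperone genes, and near it for metallothionein and zinc transport genes. Of 28 genes of the integrated stress response 6 rose and 2 fell, with 14 rises and 4 falls with the block and 3, 6, 4 and 4 without siCtl 1, siCtl 2, siNrf2 1 and siNrf2 2. Pck2, mitochondrial PEPCK, measured 119 and 136 against 229 and 241 CPM (0.88), Ddit4, an inhibitor of mTORC1, 84.1 and 140.4 against 206 and 217 CPM (0.95) and Nupr1 18.4 and 21.8 against 36.5 and 34.6 CPM (0.80). Of 26 genes of fatty acid synthesis and oxidation 9 rose and none fell, with 16 rises and 3 falls with the block and 2, 5, 6 and 2 rises without siCtl 1, siCtl 2, siNrf2 1 and siNrf2 2. Acss2, which makes acetyl-CoA from acetate, measured 15.4 and 17.8 CPM with siCtl and 34.6 and 40.4 CPM with siNrf2 (1.12 ± 0.11 (SE), adjusted p 0.000592). Of 25 glycolysis and hypoxia genes 6 rose and 2 fell, with 10 rises and 5 falls with the block and 1, 3, 1 and 2 rises without the same 4 libraries in turn. Pdk1, which restrains pyruvate dehydrogenase, measured 32.2 and 36.7 against 61.3 and 59.4 CPM (0.79) and Slc16a1, a lactate transporter, 147 and 141 against 87.8 and 88.5 CPM (-0.70). Cholesterol genes gave 1 rise and 1 fall among 22, the rise being Tm7sf2 (0.77), and p53 targets 2 rises and 3 falls among 19, with Fas at 18.1 and 15.3 against 34.9 and 34.95 CPM (1.03) and Trp53 itself at 217 and 205 against 156 and 139.7 CPM (-0.51). The cholesterol list had 7 rises and 1 falls with the block and kept neither call without siCtl 1 or siNrf2 2. The p53 list had 7 rises and 7 falls with the block, and 1, 2, 2 and 1 falls without siCtl 1, siCtl 2, siNrf2 1 and siNrf2 2. Among 21 immediate early genes 2 rose and 1 fell, with 7 rises and 2 falls with the block and 0, 0, 1 and 1 rises without the same 4 libraries in turn. Nr4a1 rose with siNrf2 replicates far apart, at 11.8 and 7.79 CPM with siCtl and 61.2 and 19.1 CPM with siNrf2 (1.74 ± 0.42 (SE), adjusted p 0.0229), and Fosl1 fell at 138 and 82.03 against 63.2 and 29.6 CPM (-1.28), a call lost without siCtl 1 or siNrf2 2. Of 22 ER chaperones and unfolded protein genes Sel1l and Edem1 rose and Manf fell, with 5 rises and 2 falls with the block. Of 10 metallothionein and zinc transport genes Mt2 rose and Slc39a6 fell, with 3 rises and 3 falls with the block.

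**Figure D3:**
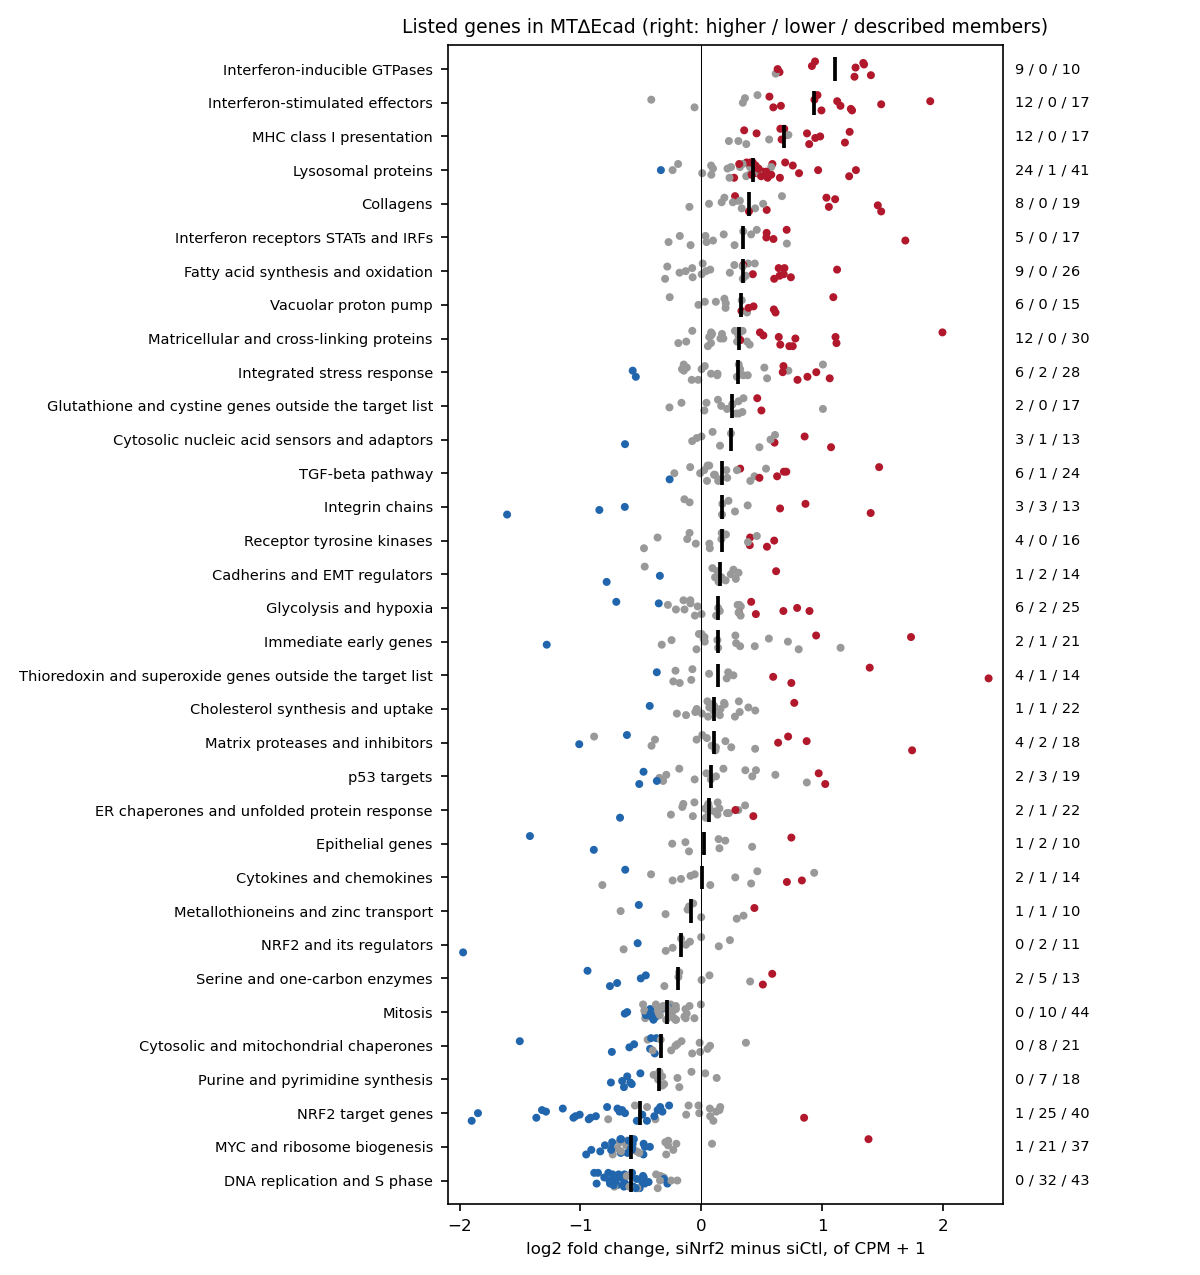
Log2 fold change (horizontal axis, siNrf2 minus siCtl, of CPM + 1) of each described gene in the lists with 7 or more such genes, coloured red where higher, blue where lower and grey where not passed, with a black bar at the median. Interferon and MHC class I lists lie to the right, led by the GTPases at 1.11, and replication (-0.58), MYC and ribosome (-0.58) and NRF2 target genes (-0.51) to the left.

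The largest single rises lay mostly outside the pathways above. Cd93, a surface glycoprotein, measured 9.59 and 15.1 CPM with siCtl and 58.9 and 87.7 CPM with siNrf2 (2.48 ± 0.21 (SE), adjusted p 0.00038). Ogn, osteoglycin, a small proteoglycan of the matrix, measured 21.7 and 21.1 CPM with siCtl and 98.2 and 100.3 CPM with siNrf2 (2.16 ± 0.08 (SE), adjusted p 5.68e-06). Mme, the membrane protease neprilysin, measured 35.8 and 33.9 CPM with siCtl and 131 and 144 CPM with siNrf2 (1.95 ± 0.10 (SE), adjusted p 3.14e-05). For Ogn and Mme the replicates of a group lay far closer to each other than to the other group, while the Cd93 libraries with siNrf2 were further apart. Parm1 measured 4.28 and 5.46 against 21.98 and 27.5 CPM (2.13), Tmem140 4.698 and 4.87 against 21.6 and 24.7 CPM (2.06) and Ackr3, a scavenger receptor of chemokines, 1.88 and 2.69 against 9.74 and 14.1 CPM (1.96). Csf2rb, the shared chain of cytokine receptors, measured 2.72 and 2.55 against 13.6 and 12.5 CPM (1.95), and Cd28, known from T cells, 5.61 and 4.65 against 20.9 and 20.1 CPM (1.82), while Cd3e had no read and Ptprc, the common leukocyte antigen, at most 1 per library. Low genes rose as well: Slc6a2, the noradrenaline transporter, measured 2.66 and 3.73 against 12.3 and 19.5 CPM (1.99) and Aoc3, an amine oxidase, 1.88 and 2.55 against 8.36 and 14.6 CPM (1.92). C1qtnf1, a secreted protein, measured 13.6 and 24.8 against 70.95 and 99.8 CPM (2.13). In the limma fit of the 4 libraries alone Slc6a2, Aoc3 and C1qtnf1 missed the threshold, with adjusted p of 0.0504, 0.0554 and 0.0596. That fit gave Ogn, Mme, Csf2rb and Cd28 an adjusted p of 0.043 each. Every library of the other lines had these under 1 CPM. Their small SE and adjusted p in the shared model therefore rest in part on libraries with little or no signal.

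The largest falls outside the lists had varied roles. Gsta1, a glutathione transferase not on the target list, measured 8.16 and 6.98 CPM with siCtl and 0.851 and 0.901 CPM with siNrf2 (-2.19 ± 0.14 (SE), adjusted p 0.000131). It too is described only through its controls. Klk10, a secreted protease of the kallikrein family, measured 97.2 and 90.8 CPM with siCtl and 29.7 and 22.3 CPM with siNrf2 (-1.83 ± 0.16 (SE), adjusted p 0.00038). F2rl1, a receptor cleaved by proteases, measured 5.15 and 4.69 against 1.26 and 0.93 CPM (-1.50), and Tmem168 61.04 and 58.3 against 19.02 and 22.5 CPM (-1.49). Both siNrf2 libraries of each lay below both controls, as for every called fall. Hmga1 (5.86 and 5.61 against 1.64 and 1.28 CPM, -1.46) and Hmga1b (4.99 and 4.72 against 1.39 and 0.901 CPM, -1.46) are near-identical copies of a chromatin protein gene, and their reads cannot be told apart with certainty. Tafa5 (-1.65), Shank2 (-1.42) and Prl2c2 (-1.45), which has close copies of its own, had adjusted p of 0.0645, 0.0595 and 0.0747 in the fit of the 4 libraries alone, and Prl2c2 also missed the threshold with edgeR (0.0547) and DESeq2 (0.264).

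Fewer genes were called in the other lines. The same model, without the block, called 6 genes higher and 17 lower among the described genes in PyMT-1099 LT, and 0 and 11 in Py2T LT, where 80 were higher at an unadjusted p under 0.05. Same-numbered libraries deviated together more in PyMT-1099 LT (correlation 0.778) and Py2T LT (0.846) than in MT∆Ecad (0.625). Blocked counts were not made for the other lines, so how far both responded is not measured by these counts. Whether MT∆Ecad differed from the mean of both was tested directly, and 519 genes passed (4.61% of those described), 358 with a more positive effect in MT∆Ecad (3.18%) and 161 with a more negative one (1.43%). With the replicate block 2880 passed, and with edgeR on recovered reads 99. Of the 519 genes, 139 were under 1 CPM in all 8 libraries of the other lines. Ogn had no read there, Mme at most 0.16 CPM, Cd28 at most 0.20 CPM and Fam135b, which rose at 8.197 and 9.12 against 21.8 and 24.9 CPM (1.33), at most 0.034 CPM.

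Other genes that differed reached higher levels in the other lines. Txnrd1 ranged over 365 to 457 CPM in PyMT-1099 LT and 698 to 846 CPM in Py2T LT, where its effects were -0.21 and -0.16, and the difference was -1.10 ± 0.12 (SE) (adjusted p 0.00295). Cd93 ranged over 26.6 to 28.6 and 25.03 to 29.2 CPM, with effects of -0.03 and 0.13 and a difference of 2.43 ± 0.26 (SE) (adjusted p 0.00295). Dock8, an exchange factor for CDC42, measured 30.8 and 27.6 against 15.7 and 14.7 CPM in MT∆Ecad and differed by -0.88. Gclc (-0.79), Gclm (-0.86), Srxn1 (-0.93) and Gstp1 (-0.86) also passed, and in all 10 listed NRF2 targets had a more negative effect in MT∆Ecad. Of these Cbr3 reached at most 0.335 CPM in the other lines, too low for a fall to be measured there. Gsta4, Gstm1 and Tmem168 did not pass: Gsta4 changed by -1.12 and -2.16 in the other lines, Gstm1 by -0.92 and -0.88 and Tmem168 by -1.67 and -0.97. Their differences were -0.20 ± 0.26 (SE), -0.03 ± 0.15 (SE) and -0.16 ± 0.24 (SE). Gsta4 ranged over 1.4 to 5.13 CPM in PyMT-1099 LT and Gstm1 over 1.87 to 4.655 CPM in Py2T LT. At such levels log2(CPM + 1) understates falls, so these differences do not show that the effects were equal.

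**Figure D4:**
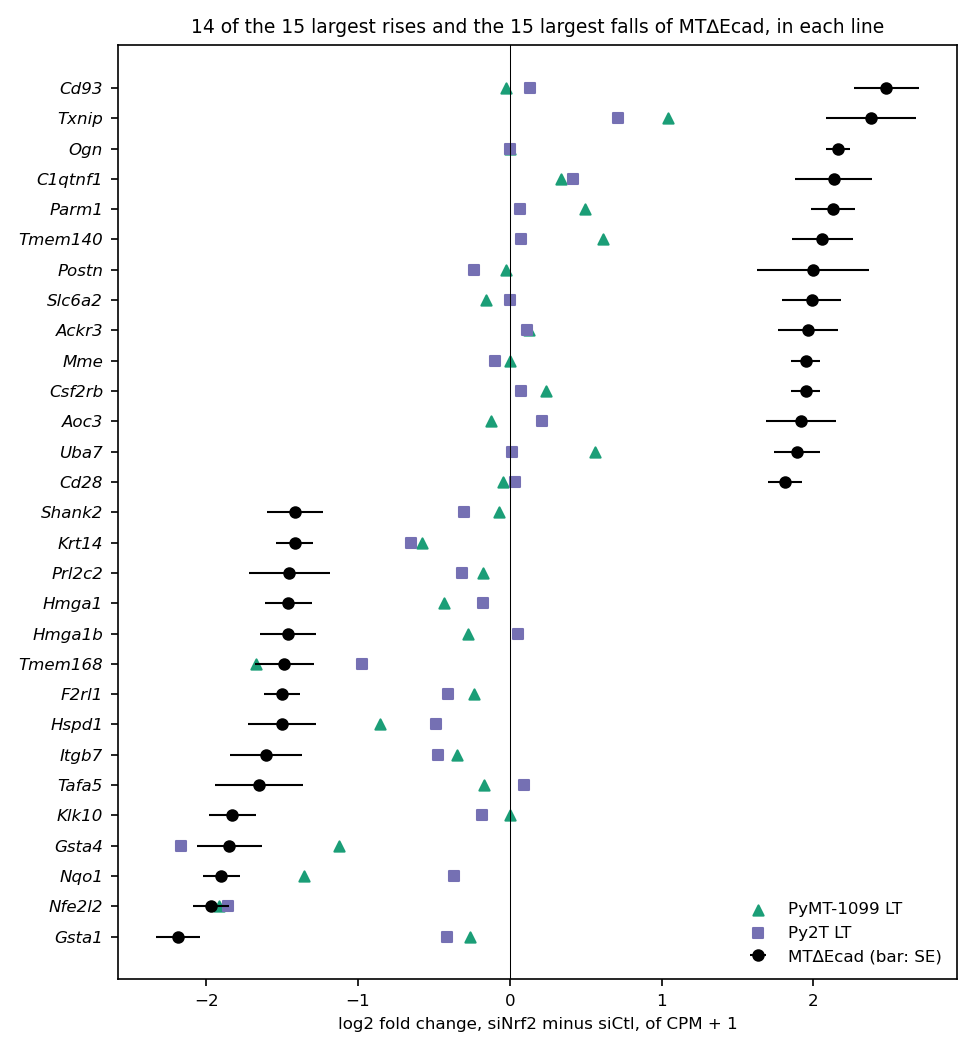
Log2 fold change (horizontal axis, siNrf2 minus siCtl, of CPM + 1) of 14 of the 15 largest rises and the 15 largest falls of MT∆Ecad, by which the genes were chosen (circles, bars show the SE) with the same genes in PyMT-1099 LT (triangles) and Py2T LT (squares). The rises stand near 0 in the other lines except Txnip (1.04 and 0.72), C1qtnf1 (0.34 and 0.41) and a few in PyMT-1099 LT. Ogn, Mme, Csf2rb, Aoc3 and Cd28 were under 1 CPM in every library of those lines, so their values there come from little or no signal. Nfe2l2 (-1.91 and -1.86), Gsta4 (-1.12 and -2.16) and Tmem168 (-1.67 and -0.97) lie well below 0 in both.

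Short matches in 3′ untranslated regions were counted because siRNAs can act on RNAs that pair with their seed. The 7-base matches ACCATTT and GAGAAGT were taken from an earlier analysis of these data and not from siRNA sequences. Because the same data gave the matches, a higher share among genes that fell is no independent result. Their counts are a description only. Either stood in the 3′ untranslated region of 31% of the genes that fell, 20% of those that rose and 25.1% of those that did not pass, where these regions had median lengths of 1214, 1446 and 1443 bases. Between 2000 and 4000 bases of length the shares were 49.4%, 34.2% and 40.5%. Genes with either match had a median change of -0.06 and genes with neither 0.02. Nfe2l2, Gclm, Fth1, Nolc1 and Uhrf1 hold ACCATTT, Hspd1, Mafg and Esd hold GAGAAGT, and Txnrd1, Gclc, Nqo1, Rrm2 and Mcm5 hold neither. Of 40 described NRF2 targets, with a median length of 729.5 bases, 5 hold either (12.5%). The part of such matches in the falls was not tested.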

How the data were processed

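Total RNA was depleted of ribosomal RNA and sequenced as stranded libraries in single reads of 81 nt, per the labels' protocols. The submitters' processing notes name STAR and the build mm10, while the counting tool, its annotation and its use of strand are not given in the sources used here, so overlapping genes and close copies are uncertain. The authors deposited CPM for 24454 Entrez gene IDs. The steps of these CPM gave whole reads for 100% of the values in every library (within 0.01 of a read), between 27088970 and 37070635 reads per library, and intervals or limits from them cover counting error only. Of the IDs, 24374 matched RefSeq symbols of GRCm38.p6, 7 more matched GENCODE release M21 and 73 matched none.

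The test was limma 3.58.1 in R 4.3.3 on log2(CPM + 1) with 1 mean per group, a mean trend (6 residual degrees of freedom), Benjamini-Hochberg adjustment over the 12502 genes reaching 1 CPM in 2 or more of the 12 libraries, and a threshold of 0.05. Log2 fold changes understate the changes of low genes. Same-numbered libraries deviated together from their group means (r over 12502 genes was 0.625 for MT∆Ecad, 0.778 for PyMT-1099 LT and 0.846 for Py2T LT), so the replicate numbers pair the samples. The SE and adjusted p given are without this pairing unless the block is named. A gene said not to pass can pass with the block, as Myc did, while Hmox1 and Cdh2 did not (limma adjusted p 0.138 and 0.116). Blocked counts are given for MT∆Ecad and its lists where a call count moves by over 1.5 times. Alternatives were pseudocounts of 0.25 and 4, other filters, TMM scaling, the block, the 4 MT∆Ecad libraries alone, each library left out, and edgeR 4.0.16 and DESeq2 1.42.0 on the recovered reads. Nothing else says that duplicates came from separate cultures beyond the series text, so p-values measure the spread between these libraries. Fewer cells of a type and less RNA per cell cannot be told apart in such bulk RNA.

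The genes described and the 38 lists were chosen with earlier results of these data known. Named genes are members with a mean CPM of at least 2 and no overlap between groups: the 15 largest rises and the 15 largest falls, the 4 largest called changes of each list, every called NRF2 target or regulator, and the 5 called genes in each direction with the smallest adjusted p of the difference between lines, with Nfe2l2, Hmox1, Cdh1, Erbb2 and Cdh2 besides; NRF2 genes needed no minimum. A few genes that the rule names are not reported here. Genes outside this rule were named after their values were seen, which holds for the genes of the promoter stretches and the genes beside the limit too.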

Additional observations from a re-analysis of the deposited data

Results flagged for a closer look

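The effect of siNrf2 differed between MT∆Ecad and the mean of PyMT-1099 LT and Py2T LT for 519 genes, by limma's contrast of the effects in the same model. The 74 named genes among them are given with this difference in log2 units, MT∆Ecad minus the other lines. For 13 of them every library of the other lines was under 1 CPM, so that the difference is little more than the MT∆Ecad effect itself: Ogn, Mme, Aoc3, Cd28, Csf2rb, Trim30a, Fam135b, Thbs2, Itgb8, Tap1, Vcam1, Cbr3 and Gsta1. The difference was most positive for Cd93 (2.43), Ogn (2.16), Postn (2.12), Slc6a2 (2.07), Mme (2.00), Aoc3 (1.87), Parm1 (1.85), Ackr3 (1.84) and Cd28 (1.82). It was smaller in size for Csf2rb (1.79), Mmp2 (1.77), C1qtnf1 (1.76), Tmem140 (1.71), Col1a1 (1.68), Tgfbi (1.65), Uba7 (1.61) and Trim30a (1.44). Next came Irf7 (1.41), Fam135b (1.35), Ifi47 (1.33), Tap2 (1.31), Isg15 (1.25), Fas (1.24), Gbp7 (1.23), Igtp (1.14) and Idua (1.12). Values closer to 1 were those of Acss2 (1.12), Idh1 (1.09), Thbs2 (1.07), Irgm2 (1.06), Tap1 (1.01), Cx3cl1 (1.01), Itgb8 (1.01), Col3a1 (1.0) and Scarb2 (0.97). Below these stood Xaf1 (0.96), Tapbp (0.96), Psmb10 (0.94), Ctso (0.94), Ltbp2 (0.94), Col6a2 (0.91), Ddx58 (0.89), Adamts1 (0.89) and Vcam1 (0.88). The lowest values above 0 belonged to Pdk1 (0.77), Irf1 (0.74) and Msrb1 (0.62).

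The effect was more negative in MT∆Ecad for Gsta1 (-1.85), Klk10 (-1.74), Tafa5 (-1.62), Hmga1b (-1.35), Shank2 (-1.23), F2rl1 (-1.18), Hmga1 (-1.15), Txnrd1 (-1.10) and Itga6 (-1.09). It was less far below 0 for Adam12 (-1.08), Cbr3 (-1.06), Nqo1 (-1.04), Srxn1 (-0.93), Dock8 (-0.88), Odc1 (-0.87), Gclm (-0.86), Gstp1 (-0.86) and Gpr137b-ps (-0.86). Next came Krt14 (-0.80), Gclc (-0.79), Esd (-0.78), Prdx6 (-0.74), Abcc1 (-0.69), Shmt1 (-0.69), Nolc1 (-0.68), Mcm3 (-0.63) and Pfas (-0.57). Of the 519 genes, 139 were under 1 CPM in all 8 libraries of the other lines.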

How the results depend on the processing

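The numbers of calls in MT∆Ecad, 1098 higher and 1048 lower, stayed within 1.5 times under both other pseudocounts, other filters, TMM scaling and DESeq2 (941 to 1177 higher and 818 to 1079 lower). They went to 2621 and 2617 with the replicate block, by which the paired libraries share a term, to 514 and 565 in the fit of the 4 MT∆Ecad libraries alone, which has fewer samples, and to 672 lower with edgeR (898 higher). Leaving out 1 library gave 324 to 1337 genes higher and 249 to 1303 lower. The genes whose effect differed between MT∆Ecad and the other lines, 519, numbered 322 with a pseudocount of 0.25, 2880 with the replicate block, 99 with edgeR, 344 with DESeq2 and 136 to 596 with 1 library left out. The fall of Nfe2l2 lay between -2.01 and -1.91 in all of these and kept its call. Of 163 other called genes named by the rule or after their values were seen, the block lost 0 calls, edgeR 15, DESeq2 5, the 4 libraries alone 74, and the loss of siCtl 1 or siNrf2 2 cost 65 and 61; none of the 163 changed sign. With 1 library left out Hmox1, which did not pass, ranged from -0.33 to 0.12 (0.12 without siCtl 1 and 0.09 without siNrf2 2), and Keap1, also not called, from -0.195 to 0.0077, the latter without siCtl 2. The cause of these shifts was not tested. TMM scaling moved the median gene to 0.03. At a depth of 27088970 reads, genes under 0.1107 CPM cannot be told from absent.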
